A study of Mus musculus with 25 samples.

Results

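The transcripts described here are 8 genes of the lung lining, all measured in sorted lung macrophages and sorted lung fibroblasts: the surfactant protein genes Sftpa1, Sftpd, Sftpb and Sftpc, the club cell genes Scgb1a1, Scgb3a2 and Cyp2f2, and Bpifa1. They were taken by symbol from the 11867 genes of the lung table, with earlier results on these libraries known. They were selected on their signal in depleted against control lung libraries and on the agreement of that signal between same-numbered libraries, so those values are given as a description without p-values.

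The study depleted neutrophils in mice and sequenced bulk RNA of macrophages and fibroblasts sorted from lung and from skin, 25 libraries in all. Depleted mice were Mrp8_CRE; Rosa26_DTR and control mice were Mrp8_WT; Rosa26_DTR, all C57BL/6. Both genotypes carried the diphtheria toxin receptor allele and both received diphtheria toxin at 10 µg/kg into the peritoneum for 7 days, so the genotypes differ in Cre and not in the toxin. The Mrp8 (S100a8) promoter drives Cre chiefly, but not solely, in neutrophils, and the age of the mice is not given in the sources used here. In lung there were 3 libraries each of depleted macrophages, control macrophages, depleted fibroblasts and control fibroblasts, numbered 1 to 3 in each group. Lung interstitial macrophages were gated as CD45+ CD68+ F4/80+ CD11c- CD11b high cells and fibroblasts as CD45- CD31- EPCAM- PDGFRA+ cells. The gate that excludes the epithelial protein EPCAM is thus named for the fibroblasts and not for the macrophages. Nothing in the labels says that equal numbers mark the same mouse, or that libraries of a group came from separate mice, so the tests below measure the spread between libraries, which may be technical.

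Pulmonary surfactant is the film of lipid and protein that lowers surface tension in the alveoli. Alveolar type 2 cells make it: the small hydrophobic proteins SP-B and SP-C help to spread the lipid film, and the collectins SP-A and SP-D bind sugars on microbes and help phagocytes to take them up. Club cells line the small airways, secrete uteroglobin (Scgb1a1) and the related secretoglobin Scgb3a2, and carry the cytochrome P450 Cyp2f2, which oxidises inhaled chemicals. BPIFA1 (SPLUNC1) is a secreted host defence protein of the upper and conducting airways. Neither macrophages nor fibroblasts are known as a main source of these transcripts.

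The transcription factors NKX2-1 and FOXA bind promoters of several surfactant and club cell genes. RefSeq promoter sequence on GRCm38 was matched for 4 of the 8 genes, and the stretch of 150 bases that ends at the base before the annotated gene start is shown for each of these 4, as the regulatory sequence that bears on genes of both cell types. Capitals mark matches on either strand to the NKX2-1 motifs CTCAAG and TNAAGTG and the FOXA motifs TGTTTNC and TATTTAC, none of which overlap in the stretches shown. All 4 lie on the plus strand, Sftpa1 at chr14:41131632-41131781, Sftpb at chr6:72304460-72304609, Cyp2f2 at chr7:27119759-27119908 and Bpifa1 at chr2:154142730-154142879.
Sftpa1: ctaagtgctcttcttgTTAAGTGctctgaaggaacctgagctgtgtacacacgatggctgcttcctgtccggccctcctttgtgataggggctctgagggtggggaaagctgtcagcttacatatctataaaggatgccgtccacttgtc
Sftpb: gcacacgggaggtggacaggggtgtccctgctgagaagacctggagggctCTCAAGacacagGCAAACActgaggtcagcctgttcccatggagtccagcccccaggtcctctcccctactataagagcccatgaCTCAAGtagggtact
Cyp2f2: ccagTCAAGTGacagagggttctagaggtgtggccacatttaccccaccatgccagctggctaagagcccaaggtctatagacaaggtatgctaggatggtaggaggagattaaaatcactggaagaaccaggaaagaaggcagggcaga
Bpifa1: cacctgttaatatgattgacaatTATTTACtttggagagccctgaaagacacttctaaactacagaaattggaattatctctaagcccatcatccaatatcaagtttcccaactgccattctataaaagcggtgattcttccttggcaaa
Over the full 250 bases before the RefSeq start, all 4 held an NKX2-1 motif, against 21.3% of 32851 promoters of the same length, and Sftpb and Bpifa1 held a FOXA motif, against 19.9%. Sftpb is the one with both kinds in the stretch shown, with CTCAAG at 100 to 95 and again at 15 to 10 bases before the start. A match to these letters is a description of the sequence and not a bound site. Sftpc, Sftpd, Scgb1a1 and Scgb3a2 are named only.

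Levels below are the authors' normalised signal unless another scale is named. A gene without a read stands in a library at a small value above 0 that equals 0.5 of a read there, and 1 read was worth 2.997 to 6.81 units of signal in lung. Lung libraries held 124075 to 385925 estimated reads. In the macrophage libraries S100a8, a neutrophil transcript, stood at 895 to 1175 in depleted and 3741 to 10656 in control mice. The gate genes Cd68 and Pdgfra followed the labels, with ± giving the SD and n = 3 in every group. Cd68 averaged 1339 ± 73.7 in depleted and 1308 ± 203 in control macrophages. Its fibroblast means were 18.1 ± 11.2 (depleted) and 18.5 ± 12.4 (control). Pdgfra averaged 668 ± 105 in depleted and 688 ± 190 in control fibroblasts. Its macrophage means were 9.02 ± 5.81 (depleted) and 5.26 ± 5.29 (control). Ptprc, Adgre1 and Itgam also stood higher in macrophages. Pecam1 (CD31) was not low in fibroblasts, which were sorted as CD31-. It averaged 201 ± 31.2 in depleted and 205 ± 60.3 in control fibroblasts, against 148 ± 38.7 and 210 ± 100 in macrophages. Itgax (CD11c) averaged 78.0 ± 11.6 in depleted and 78.4 ± 25.3 in control macrophages, sorted as CD11c-. The reason was not tested.

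Within macrophages all 8 transcripts averaged higher in depleted than in control libraries, by log2 fold changes of 1.09 to 3.63. In fibroblasts all 8 averaged higher as well, by 0.16 to 3.38. The difference was not spread evenly over libraries. Depleted library 3 was the highest of its group for all 8 transcripts in macrophages and for 4 in fibroblasts, and control library 3 was the lowest, or had 0 reads, for all 8 in macrophages and for 6 in fibroblasts. Bulk RNA cannot tell more cells of a type from more RNA per cell, so a level here says how much of a transcript the sorted sample held.

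**Figure D1:**
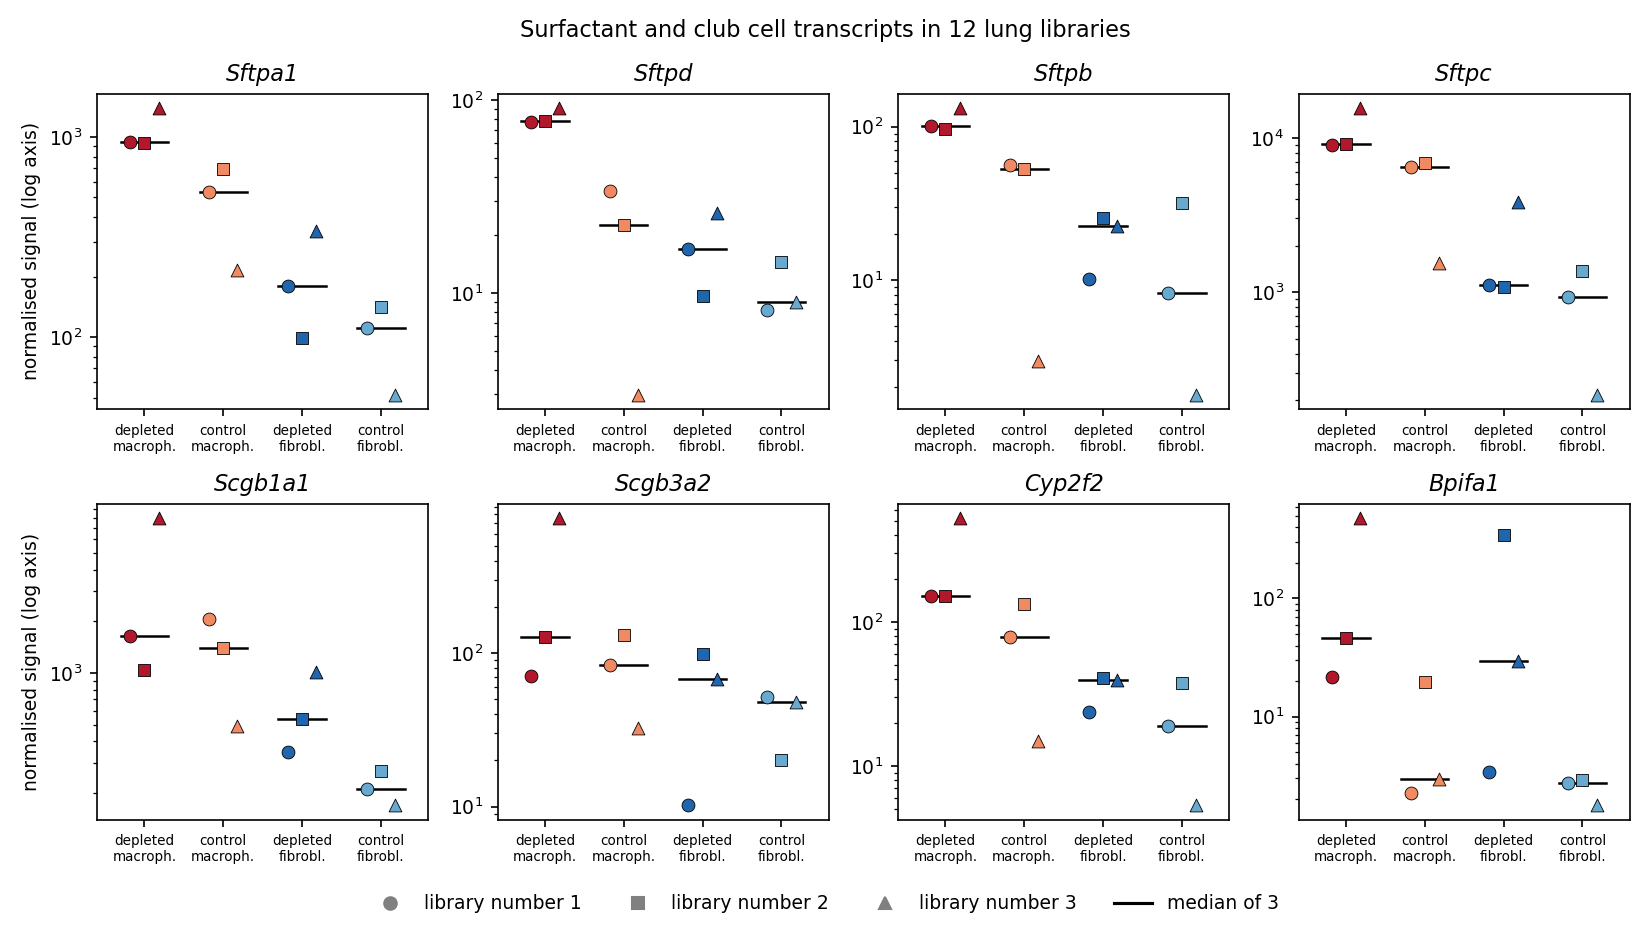
Normalised signal (log axis) of each of the 8 transcripts in the 12 lung libraries, with depleted left of control, a point per library, the library number as the symbol and the median of 3 as a bar. Triangles, the libraries numbered 3, are the highest point of depleted macrophages for all 8 transcripts and the lowest or nearly the lowest of control macrophages.

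Sftpa1 (chromosome 14, 41131782 to 41136452, plus strand) encodes the collectin SP-A. Its signal was 950.5, 940.2 and 1402 in depleted macrophage libraries 1, 2 and 3, against 531, 692 and 217 in control macrophage libraries 1, 2 and 3. Every depleted library lay above every control library, by a log2 fold change of 1.32 ± 0.29 (SE). In fibroblasts it stood at 180.4, 99.1 and 341 in depleted and 112, 141 and 51.5 in control libraries, which overlap, for a change of 0.96 ± 0.33 (SE).

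Sftpd (chromosome 14, 41172214 to 41185149, minus strand) encodes SP-D, the other collectin of the alveolar lining. Depleted macrophages had 76.9, 77.6 and 91.3 and control macrophages 33.9, 22.5 and 2.97, the last of them a library with 0 reads of the gene. These groups were apart as well, with a log2 fold change of 2.47 ± 0.61 (SE), which rests on 39 reads in depleted and 14 in control libraries. In fibroblasts the gene was near the detection limit, at 17.0, 9.72 and 25.9 in depleted and 8.19, 14.4 and 8.98 in control libraries (11 and 5.02 reads), and the change of 0.62 ± 0.80 was smaller than its SE.

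Sftpb (chromosome 6, 72304610 to 72314371, plus strand) encodes SP-B, which is needed for the surfactant film to form. The macrophage libraries gave 102, 96.2 and 132 in depleted and 56.5, 53.3 and 2.97 in control mice, where control library 3 again had 0 reads. The depleted libraries were all above the control ones, with a log2 fold change of 2.24 ± 0.59 (SE). Fibroblast libraries held 10.2, 25.3 and 22.4 in depleted and 8.19, 31.8 and 1.78 in control mice, which overlap, and the change was 1.008 ± 0.83 (SE).

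Sftpc (chromosome 14, 70520949 to 70524081, minus strand) encodes SP-C, made by type 2 cells and used as their marker. It was the most abundant of the 8, with 8976, 9163 and 15629 in depleted macrophages against 6506, 6881 and 1535 in control macrophages. Depleted libraries again lay above all control libraries, and the log2 fold change was 1.41 ± 0.37 (SE). In fibroblasts the signals were 1113, 1082 and 3818 in depleted and 925, 1361 and 216 in control libraries. There the groups overlapped, since libraries 1 and 2 of both genotypes stood close together, and the change was 1.36 ± 0.30 (SE).

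Scgb1a1 (chromosome 19, 9083636 to 9087958, minus strand) encodes uteroglobin, the main secreted protein of club cells. In macrophages it read 1639.5, 1039 and 7981 in depleted and 2064, 1395 and 489.9 in control libraries. Depleted library 3 stood far above the rest, while libraries 1 and 2 were lower in depleted than in control mice, so these groups overlapped (log2 fold change 1.09 ± 0.41, SE). Fibroblasts gave 344, 539 and 1017 in depleted against 210.1, 269 and 169 in control libraries, with no overlap and a change of 1.43 ± 0.27 (SE).

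Scgb3a2 (chromosome 18, 43764289 to 43767399, plus strand) encodes a second secretoglobin of the airway. Its signal in macrophages was 70.7, 127 and 757 in depleted and 83.6, 130.2 and 32.7 in control libraries. As for Scgb1a1, only depleted library 3 stood above the control libraries, and the log2 fold change was 1.41 ± 0.48 (SE). Fibroblasts held 10.2, 99.1 and 67.3 in depleted and 51.9, 20.2 and 48.1 in control libraries, which overlap, and the change of 0.16 ± 0.52 was smaller than its SE.

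Cyp2f2 (chromosome 7, 27119909 to 27133660, plus strand), the club cell P450, had 151, 152 and 527 in depleted and 79.1, 133 and 14.8 in control macrophages. All depleted libraries exceeded all control ones, and the log2 fold change was 2.06 ± 0.47 (SE). The lowest depleted and the highest control library were close, at 151 and 133. In fibroblasts, depleted libraries gave 23.8, 40.8 and 39.7 and control libraries 19.1, 37.6 and 5.35, which overlap (1.03 ± 0.64, SE).

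Bpifa1 (chromosome 2, 154142880 to 154149219, plus strand) was the least even of the 8. Depleted macrophage libraries held 21.5, 46.5 and 479 (3, 7 and 80.8 reads), and control macrophage libraries 2.26, 19.5 and 2.97 (0, 6 and 0 reads). The groups did not overlap in signal, but only just: depleted library 1 stood at 21.5 with 3 reads and control library 2 at 19.5 with 6 reads, and as a share of library reads the control one was higher (14.4 ppm in depleted 1 and 15.5 ppm in control 2). The log2 fold change was 3.63 ± 0.83 (SE). In fibroblasts the depleted libraries had 3.40, 348 and 29.4, or 0, 89 and 8 reads, and no control library had a read. Summed, that made 97 reads for depleted against 0 for control fibroblasts, at least 29.1-fold higher as a share of reads when 3 reads over the group stand for the count of 0. Depleted fibroblast library 2, which held most of these reads, was the lowest of its group for Sftpa1, Sftpd and Sftpc. It was the highest for Sftpb, Scgb3a2 and Cyp2f2, the last by little (40.8, against 39.7 in depleted fibroblast library 3).

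Of the 8 members, 4 passed an adjusted p of 0.05 in macrophages (limma), namely Sftpa1, Sftpd, Cyp2f2 and Bpifa1, all higher in depleted mice. Over all 11867 genes 0.497% passed in either direction, 0.0674% as higher and 0.43% as lower. In fibroblasts 1 member passed, Scgb1a1, which was also the 1 gene of the table that did (0.00843%). These calls helped to choose the members and are no support for them. In macrophages 6 of the 8 had depleted libraries all above control libraries, against 6.21% of all genes, and in fibroblasts 2 of 8 did, against 4.94%. Bpifa1 in fibroblasts is 1 of these 2 only through the value given to 0 reads, since depleted library 1 and all control libraries had none. The median log2 fold change of the members was 1.73 in macrophages, where it was 0.04 over all genes, and 1.02 in fibroblasts, where it was -0.01. Whether the change differed between the cell types was not tested.

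Libraries numbered 3 carried much of these changes. Without both of them, a choice made after seeing the data, the median log2 fold change of the members was 0.60 in macrophages and 0.15 in fibroblasts, and 0 of 8 passed in either. Scgb1a1 and Scgb3a2 then stood lower in depleted macrophages, at -0.38 and -0.14, and Sftpc was at 0.44 in macrophages and -0.03 in fibroblasts. Sftpd (1.45) and Bpifa1 (1.99) stayed furthest above 0 in macrophages. With 3 libraries a group, leaving out control macrophages 3 alone or depleted macrophages 3 alone also brought the number that passed in macrophages to 0, as did leaving out control macrophages 2.

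**Figure D2:**
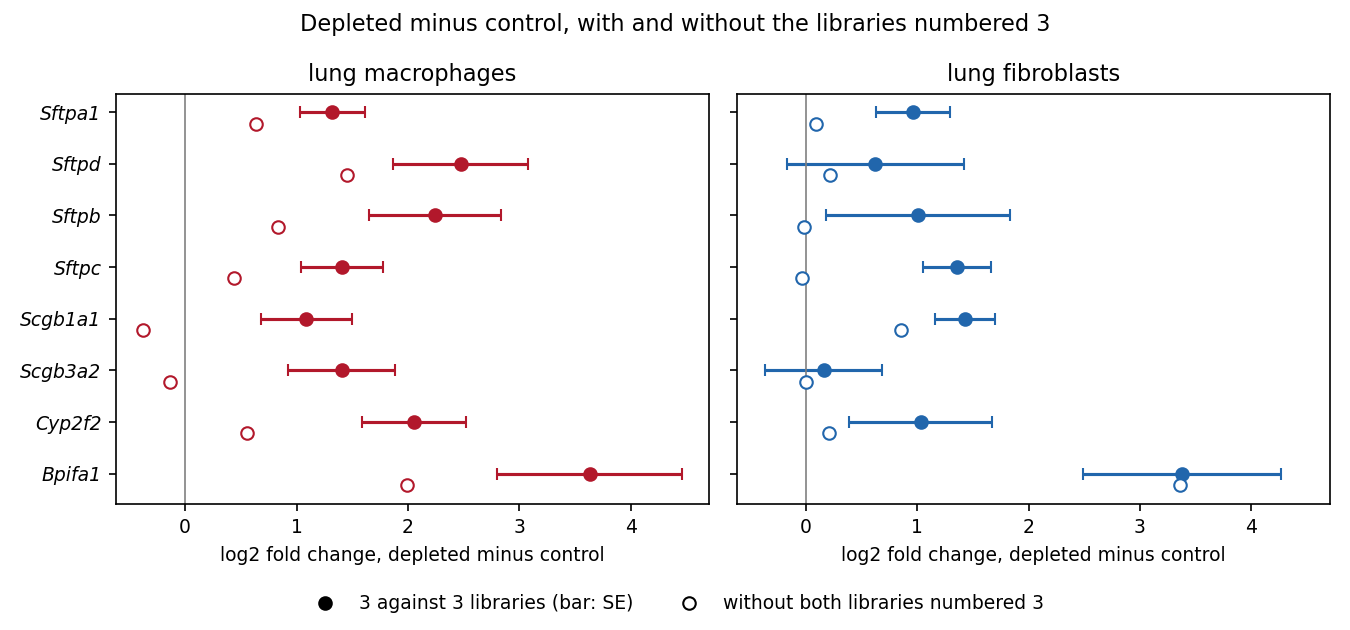
Log2 fold change, depleted minus control, of each transcript in lung macrophages (left panel) and lung fibroblasts (right panel). Filled points with SE bars use 3 against 3 libraries and open points leave out both libraries numbered 3; open points lie nearer 0 than filled ones in macrophages for all 8 transcripts, with Scgb1a1 and Scgb3a2 below 0.

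Taken as a share of all estimated reads, the 8 transcripts together made up 0.936%, 1.04% and 2.22% of depleted macrophage libraries 1, 2 and 3, against 0.887%, 0.805% and 0.202% of control macrophage libraries. The exact 95% interval of the lowest was 0.182% to 0.223% and that of the highest 2.16% to 2.29%, counting error only. The group means were 1.3995% ± 0.716 in depleted and 0.631% ± 0.374 in control macrophages (SD, n = 3 each), a ratio of 2.22. Libraries 1 and 2 of both genotypes lay close together, and library 3 lay above it in depleted mice and below it in control mice. In macrophages every depleted share lay above every control share. In fibroblasts, at a lower level, library 3 was again highest in depleted and lowest in control mice, but control 2 lay above depleted 1, so the genotypes overlapped. The fibroblast shares were 0.198%, 0.265% and 0.574% in depleted and 0.153%, 0.222% and 0.0554% in control libraries, with means of 0.346% ± 0.201 and 0.143% ± 0.0838 (SD, n = 3 each) and a ratio of 2.41. Without both libraries numbered 3 the ratio was 1.17 in macrophages and 1.23 in fibroblasts.

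Setting macrophages over fibroblasts of the same genotype and number, the share was 4.72, 3.92 and 3.87 times as high in depleted libraries 1, 2 and 3 and 5.81, 3.62 and 3.65 times in control libraries. This ratio varied 1.60-fold over the 6 pairs, while the share itself varied 11.02-fold over macrophage and 10.4-fold over fibroblast libraries. The high macrophage library and the high fibroblast library thus carried the same number, and so did the low ones. The cell types were sorted by different gates, and the labels do not say whether from the same cell suspension. Pearson's r between the mean log2 levels of the members in same-numbered libraries was 0.91 and Spearman's rho 0.94 over 6 pairs. After each group was centred on its mean, r was 0.81. Without the pairs furthest from the median, control 3 and depleted 3, r was 0.69 and rho 0.80 over 4 pairs. This agreement is part of how the members were chosen and is given with no p.

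**Figure D3:**
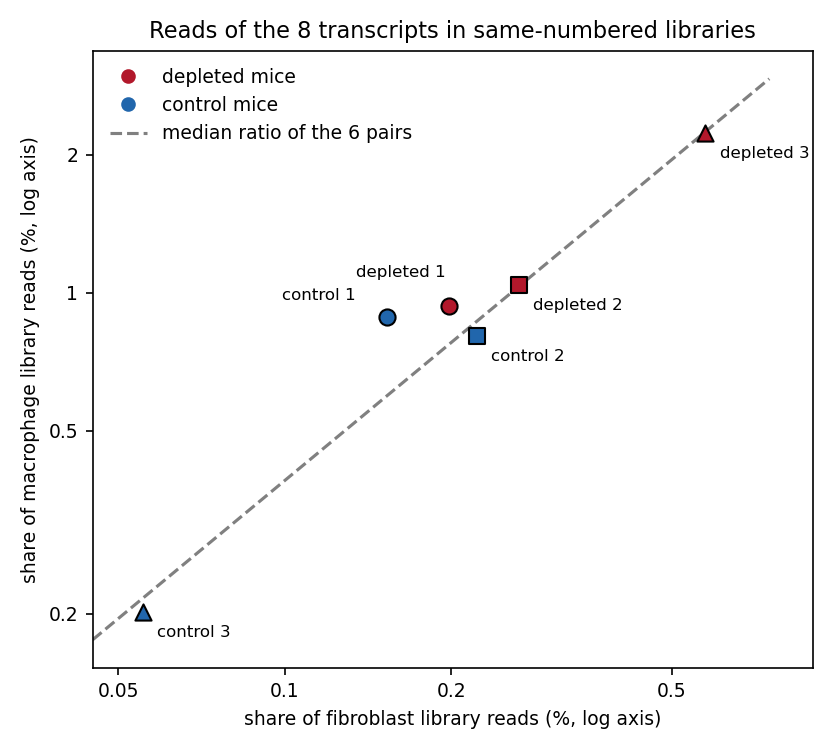
Share of library reads in the 8 transcripts in macrophages (vertical) against the same-numbered fibroblast library (horizontal), both log axes in percent, for 3 depleted and 3 control pairs. The points lie close to the dashed line of the median ratio, 3.90, with depleted 3 at the top and control 3 at the bottom.

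Gene by gene, the same-number r was highest for Sftpc (0.96), Cyp2f2 (0.90), Sftpa1 (0.88) and Sftpb (0.82). Fibroblast libraries held only 1 to 11 reads of Cyp2f2 and 0 to 6 of Sftpb, and both control 3 libraries had 0 reads of Sftpb. For the other members the same-number r was lower. It was 0.75 for Scgb1a1, 0.59 for Bpifa1, 0.53 for Sftpd and 0.31 for Scgb3a2. With groups centred, Sftpd and Bpifa1 dropped to 0.16 each while Sftpc stayed at 0.95. The median was 0.79 for the members, against -0.0003 over 5138 genes with a mean of at least 5 estimated reads a library, of which 3.02% reached the members' median. Over all genes, deviations from group means correlated at -0.10 to 0.08 between same-numbered libraries.

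**Figure D4:**
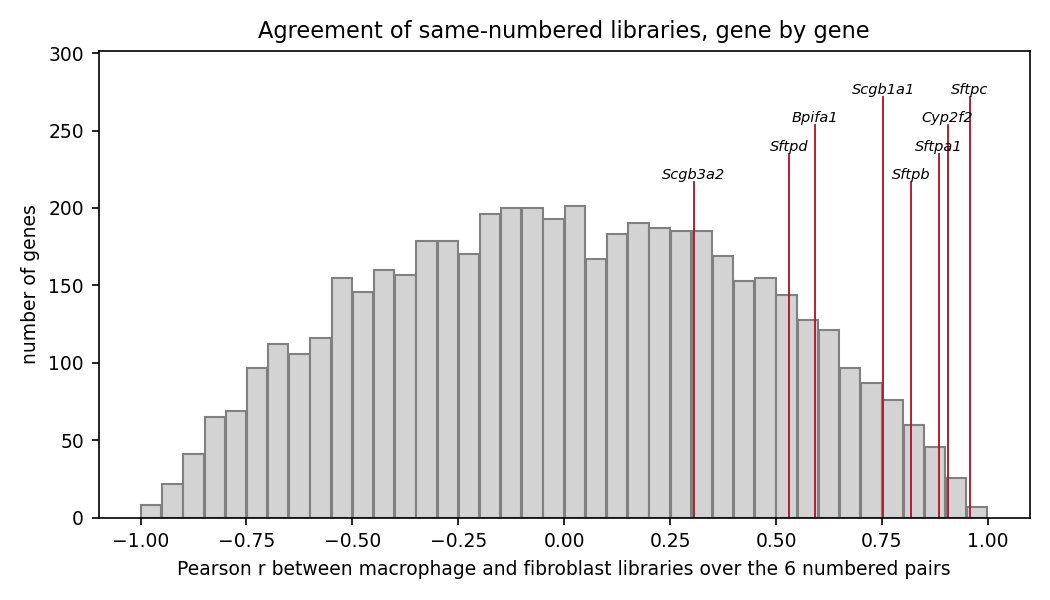
Number of genes (grey bars) by Pearson's r between macrophage and fibroblast libraries over the 6 numbered pairs, for 5138 genes, with each of the 8 transcripts as a red line. All genes spread around 0 and the transcripts lie from 0.31 (Scgb3a2) to 0.96 (Sftpc).

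The make-up of the reads was alike in most libraries. Sftpc gave 57.9% to 78.8% of the reads of the 8 transcripts in depleted macrophages and 67.4% to 73.9% in control macrophages, and 48.5% to 71.4% in depleted and 43.8% to 73.2% in control fibroblasts. Sftpa1 ran at 8.13 to 13.96 reads per 100 of Sftpc in macrophages and 8.90 to 23.3 in fibroblasts, a range of 1.72-fold and 2.61-fold. The balance of club cell to type 2 transcripts moved more, with 11.3 to 51.1 reads of Scgb1a1 per 100 of Sftpc in macrophages and 19.6 to 78.3 in fibroblasts. In depleted macrophage library 3 the 3 club cell genes made up 34.3% of the reads, and in the other 2 depleted libraries 15.5% and 11.3%. Their largest part of any lung library was in control fibroblasts 3, at 44.5% (exact 95% interval 36.0% to 53.3%), against 20.7% and 17.1% in control fibroblasts 1 and 2. Depleted fibroblast library 2 stood apart through Bpifa1, at 15.5% of its reads of these transcripts (exact 95% interval 12.7% to 18.8%).

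**Figure D5:**
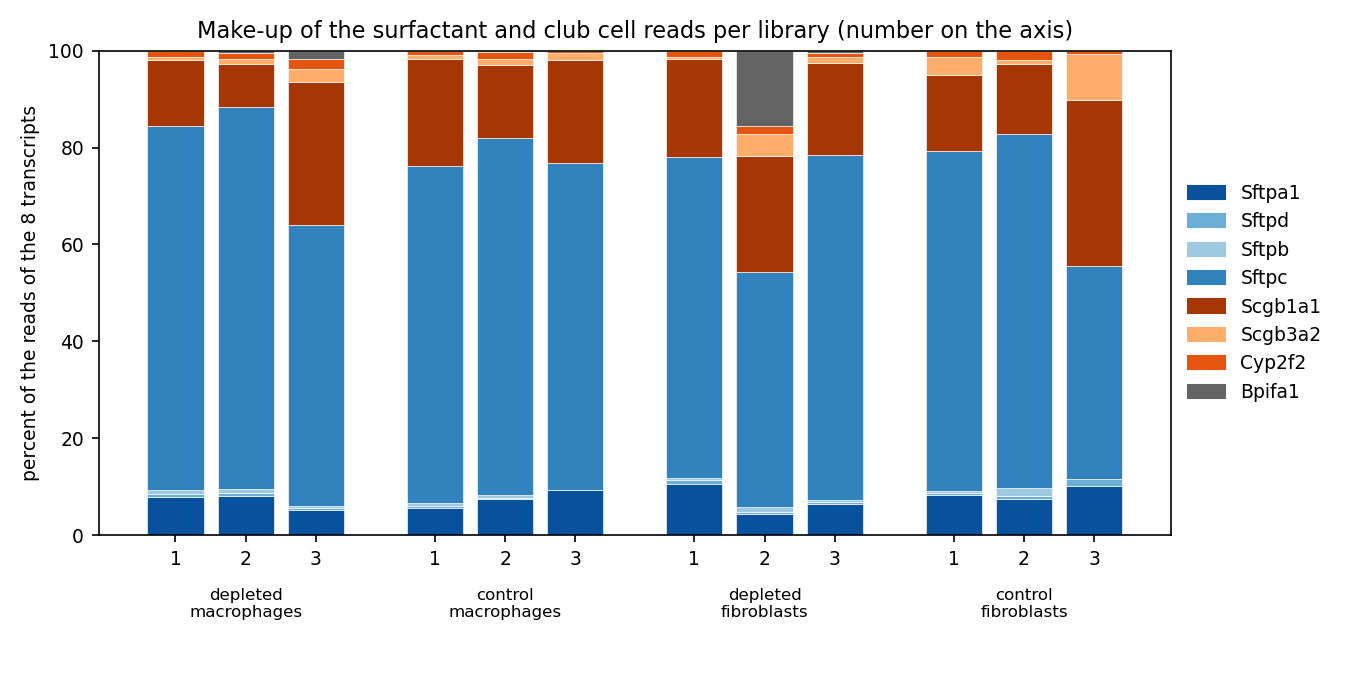
Percent of the reads of the 8 transcripts that each one took, a stacked bar per lung library, with depleted left of control. Sftpc is the largest part of every bar, Scgb1a1 the second, and Bpifa1 is a visible part in depleted fibroblasts 2 (15.5%).

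To compare levels between genes, signal was divided by the length of the principal transcript. The median signal per kb over 6 macrophage libraries was 10011 for Sftpc, 3187 for Scgb1a1, 286 for Sftpa1, 192 for Scgb3a2, 76.0 for Cyp2f2, 51.2 for Sftpb, 43.5 for Sftpd and 18.5 for Bpifa1. That order held for neighbours in all 6 libraries except Sftpa1 over Scgb3a2 (5 of 6), Sftpb over Sftpd (5 of 6) and Sftpd over Bpifa1 (4 of 6). Control 3, with no read of Sftpb, Sftpd or Bpifa1, was out of order for both pairs of these genes. In fibroblasts the median per kb was 1386 for Sftpc, 643 for Scgb1a1, 90.9 for Scgb3a2, 44.4 for Sftpa1, 16.4 for Cyp2f2, 10.96 for Sftpb, 9.48 for Sftpd and 2.84 for Bpifa1. Sftpc over Scgb1a1 and Cyp2f2 over Sftpb held in 5 of 6 fibroblast libraries. Scgb3a2 and Sftpa1 kept this order in 4 of 6, Sftpb and Sftpd in 2 of 6 and Sftpd and Bpifa1 in 4 of 6, so those neighbours are not ordered beyond their spread.

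The difference between the cell types was tested in a fit of the 4 lung groups, averaged over the genotypes. Macrophages held more than fibroblasts of 7 of the 8 transcripts (limma, adjusted p below 0.05), where 36.6% of all 11867 genes passed, 18.5% as higher and 18.1% as lower. On the log2 scale the difference was 2.68 ± 0.35 for Sftpc and 2.37 ± 0.28 for Sftpa1 (SE, limma adjusted p = 2.48e-07 and 5.39e-08). Scgb1a1 followed at 2.23 ± 0.34 and Cyp2f2 at 2.21 ± 0.45 (SE, limma adjusted p = 4.36e-06 and 2.16e-04). Sftpb (1.91 ± 0.56), Scgb3a2 (1.54 ± 0.49) and Sftpd (1.33 ± 0.47) had larger errors (SE, limma adjusted p = 0.00808, 0.0127 and 0.0262). Bpifa1, at 1.02 ± 0.76, did not pass (SE, limma adjusted p = 0.310).

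Same-numbered macrophages were above fibroblasts in 6 of 6 pairs for Sftpa1, Sftpc, Scgb1a1 and Cyp2f2 and in 5 of 6 for Sftpd and Scgb3a2. Sftpb was higher in macrophages in all 5 pairs with a read of it, and Bpifa1 in 3 of 4 such pairs. Without regard to number the 6 macrophage and 6 fibroblast libraries overlapped for all 8 members, while 10.2% of all genes had every macrophage library above every fibroblast library. The calls of Sftpd and Scgb3a2 depended on single libraries: Sftpd was not called without control macrophages 1 (1.02), control macrophages 2 (1.16), depleted macrophages 3 (1.29), control fibroblasts 1 (1.25) or depleted fibroblasts 2 (1.15). Scgb3a2 was not called without depleted macrophages 3 (1.05) or depleted fibroblasts 1 (1.06), nor with no variance trend (limma adjusted p = 0.0856). Bpifa1 passed without depleted fibroblasts 2 (1.84). When libraries were rescaled to their total signal, 5 of 8 passed, with Sftpd at 0.95 and Scgb3a2 at 1.14 not called. That scaling moved the median of all genes to -0.46, against -0.09, and the calls to 1551 higher and 3433 lower, against 2191 higher and 2149 lower. In control mice alone 3 of 8 passed, Sftpa1, Sftpc and Scgb1a1.

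Other transcripts of the same cells were counted from lists chosen with earlier results known. Of 14 measured alveolar type 2 genes outside the members, 9 were higher and 5 lower in depleted macrophages, with a median log2 fold change of 0.33, and the 1 that passed was lower. This was Slpi, a protease inhibitor that neutrophils also make, which fell to 319 ± 8.87 in depleted macrophages, against 1279 ± 491 in control ones (SD, n = 3 each, limma adjusted p = 2.79e-06). The surfactant lipid transporter Abca3 had 10 reads in depleted and 5 in control macrophages, and the phosphate transporter Slc34a2 had 26 and 28. Slc34a2 was at 46.1, 71.4 and 50.1 in depleted macrophages, against 47.5, 55.4 and 2.97 in control macrophages, so its low library was again control 3. In fibroblasts 10 of the 14 were higher, none passed and the median was 0.39.

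Of 12 measured genes of club and other secretory airway cells, 11 were higher and 1 lower in depleted macrophages (median 0.85), and none passed. Over all genes 52.3% were higher. The list took 0.0981% to 0.164% of depleted and 0.0804% to 0.114% of control macrophage libraries. In fibroblasts it took 0.571% to 0.622% of depleted and 0.472% to 0.583% of control libraries, so unlike the members it was higher there. Fmo2 of this list averaged 2879 in depleted and 2376 in control fibroblasts, against 45.2 in depleted and 20.7 in control macrophages. Scgb3a1, another airway secretoglobin, had 4, 2 and 26 reads in depleted and 1, 6 and 2 in control libraries, with its high library again depleted 3. Cbr2, a carbonyl reductase of club cells, averaged 693 ± 191 in depleted and 391 ± 223 in control macrophages (SD, n = 3 each, limma adjusted p = 0.209). In fibroblasts 10 of 12 were higher, where 49.3% of all genes were, with a median of 0.24, and none passed. The ciliated cell list had 5 of its 16 genes measured, with 3 higher and 2 lower in depleted macrophages, and the type 1 cell list 6 higher and 4 lower of 10. None of 7 airway basal cell genes was measured.

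Markers that epithelial cells share were few in these libraries. Of 7 measured, 4 were higher and 3 lower in depleted macrophages, with a median log2 fold change of 0.01, and the 1 that passed was Cd24a, which neutrophils also carry, lower in depleted mice (-1.59 ± 0.39, SE, limma adjusted p = 0.0463). Their summed reads made up 0.00954% to 0.0185% of depleted and 0.0200% to 0.0265% of control macrophage libraries, and 0.00231% to 0.00644% of depleted and 0.00112% to 0.00277% of control fibroblast libraries. Cd24a alone gave 21 of the 86.2 reads in depleted and 102 of the 192 in control macrophages, so the macrophage shares depend on it. Epcam itself was at 52.3, 21.7 and 26.5 in depleted macrophages, against 11.3, 34.5 and 44.5 in control macrophages, from 3 to 8 and 2 to 11 reads. In fibroblasts Epcam had 2 reads in the depleted libraries together and 0 in the control ones. On 7 reads, Epcam was second highest in control macrophages 3, the members' lowest macrophage library. Cdh1, Krt8, Slc34a2 and Sfta2 had 0 reads in that library, and Ager 1. Depleted macrophages 2 also had 0 reads of Cdh1, Krt8 and Sfta2. Napsa had 74.8 reads in control macrophages 3, and Krt18, Abca3 and Scgb3a1 were lower in control macrophages 1. Among macrophage libraries, control 3 had the lowest share of type 1 genes (0.00349%). It had the highest share of type 2 genes (0.289%), a list with Slpi and Ctsh in it. In control macrophages Slpi gave 875 and Ctsh 438 of the 1789 reads of that list, and in depleted macrophages 156 and 524 of 1058. Ctsh stood higher in macrophages than in fibroblasts, by 5.03 on the log2 scale. The part of epithelial RNA in the member levels was not tested.

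Transcripts for the handling of surfactant were also counted. Of 13 measured genes for surfactant lipid synthesis and secretion, 7 were higher and 6 lower in depleted macrophages (median 0.19), and of 16 for uptake and clearance by macrophages 6 were higher and 10 lower (median -0.09). None of either passed in either cell type. Of 9 measured collectins and lung host defence proteins outside the members, 6 were higher and 3 lower in depleted macrophages, with Slpi passing as lower and the lysozyme gene Lyz1 as higher, at 452 ± 11.6 in depleted and 167 ± 34.1 in control macrophages (SD, n = 3 each, limma adjusted p = 0.00113).

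Neutrophil transcripts were lower in depleted macrophage libraries, where the members averaged higher. Of 15 measured neutrophil genes 14 were lower in depleted macrophages, 11 of them past the threshold, with a median log2 fold change of -2.50. Their reads made up 0.173%, 0.190% and 0.202% of depleted macrophage libraries 1, 2 and 3, against 1.15%, 0.904% and 1.84% of control ones, so control library 3 held the most neutrophil reads and the fewest reads of the members. Of the depleted macrophage libraries, library 3 had the highest share of both, at 0.202% for neutrophil genes and 2.22% for the members. In fibroblasts the neutrophil list took 0.0382% to 0.0683% of depleted and 0.0373% to 0.0499% of control libraries. Most of that was G0s2 alone, with 293 of 329 reads in depleted and 211 of 241 in control fibroblasts. S100a8 had 5 reads in depleted and 8 in control fibroblasts. B and plasma cell genes were lower too, 10 of 10 measured, with a median of -1.75. Igkc (-2.16 ± 0.41) and Cd79b (-2.23 ± 0.52) passed (SE, limma adjusted p = 0.00198 and 0.0245). B and plasma cell reads made up 0.0222% to 0.0704% of depleted and 0.0925% to 0.241% of control macrophage libraries. Interstitial macrophage genes were higher for 11 and lower for 3 of 14, none past the threshold, and took 10.5% to 18.8% of depleted and 6.05% to 10.3% of control macrophage libraries. The 4 measured red blood cell genes all averaged higher on the log2 scale in depleted macrophages, none past the threshold. Their share was 0.0322%, 0.00554% and 0.00243% of depleted libraries 1, 2 and 3, against 0.0107%, 0.0137% and 0.00105% of control ones. Only depleted library 1 thus stood above all control libraries. The part of any of these cell types in the macrophage result was not tested. Of 16 measured alveolar macrophage genes 6 were higher and 10 lower in depleted macrophages (median -0.21), none past the threshold. They took 0.723% to 1.16% of depleted and 0.750% to 1.04% of control macrophage libraries. Most of that was Chil3 alone, with 4237 of 5899 reads in depleted and 4071 of 6702 in control macrophages.

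The genes whose pattern was most like the members' mean over the 12 lung libraries, each cell type centred, were looked for among 5138 genes. After the members, the 10 highest were Gsta3 (r = 0.86), Ephx1 (0.85), Eprs (0.85), Ccdc115 (0.84), Cbr2 (0.84), Rnmt (0.84), Rab7b (0.83), Ptma (0.82), Lxn (0.82) and Rps6 (0.82). Gsta3, a glutathione transferase, and Cbr2 also stand on the club cell list, and Ephx1 is an epoxide hydrolase. Gsta3 was mainly a fibroblast transcript here, at 394.8 to 786 in depleted and 369 to 390.4 in control fibroblasts and 15.5 to 55.9 in depleted and 2.97 to 11.3 in control macrophages. Among the members, each of which is part of that mean, Cyp2f2 ranked 1, Sftpb 2, Scgb1a1 3, Sftpc 4, Sftpa1 6, Bpifa1 13, Sftpd 17 and Scgb3a2 56. These correlations run over 12 libraries that share their groups, their depth and the high and low libraries numbered 3, and are given as a description.

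Skin gave a view of the same genes outside the lung, in a table normalised separately and sequenced more deeply (6553115 to 27259903 estimated reads). Only Scgb1a1 and Cyp2f2 of the 8 were in it. Skin control macrophage libraries 1 and 5 went against the cell type in their labels, macrophages, and the title of library 5 itself names MFIBRO. Ptprc (CD45) was at 0.277 and 0.209 in them and Pdgfra at 297 and 435, against 362 and 14.45 in control macrophages 3. They are called the libraries labelled control macrophages.

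Cyp2f2 was a regular transcript of skin fibroblasts, at 414, 105 and 117 in depleted libraries 2, 4 and 5, against 721, 139.6 and 181 in control libraries 3, 4 and 5. The groups overlapped and did not pass (log2 fold change -0.61 ± 0.62, SE, limma adjusted p = 0.955). In skin macrophages it was at 0.0809, 0.266, 10.0 and 0.444 in depleted libraries 1, 2, 3 and 5, against 511, 21.2 and 115 in the libraries labelled control macrophages 1, 3 and 5. All depleted libraries lay below these, and the change of -5.66 ± 1.19 did not pass (SE, limma adjusted p = 0.0879). Over the 8 libraries with a fibroblast profile, whatever their label, it ranged from 105 to 721 with a median of 161, and over the 5 with a macrophage profile from 0.0809 to 21.2 with a median of 0.444. Without the libraries labelled control macrophages 1 and 5 the skin macrophage change was -3.36, with 1 control library left.

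Scgb1a1 was near 0 in most skin libraries and did not pass the filter on low values. Skin fibroblasts had 1.38, 6.40 and 0.0283 in depleted and 0.102, 0.814 and 0.0284 in control libraries. Depleted macrophages were at 0.0342 to 0.0937, and the libraries labelled control macrophages 1, 3 and 5 at 75.01, 3.22 and 0.0232, of which 1 had 2019 reads. In skin, no gene passed in either comparison (0% of 11780 genes in fibroblasts and 0% of 11716 in macrophages, limma), with 283 and 2458 at an unadjusted p below 0.05.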

How the data were processed

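RNA of sorted cells was made into libraries with the Ovation single cell RNA-seq kit and read as single ends of 61 nt, per the labels' protocols. The values are a normalised signal per gene and library, deposited by the authors in 1 table for lung and 1 for skin, which were normalised separately. The submitters' processing notes name CASAVA 1.8, cutadapt 1.7.1, RSEM 1.7.1, limma 3.46 and the mm10 build without roles, and no source used here gives the authors' gene filter or normalisation. Each library's lowest value was read as 0.5 of a read, which gave estimated reads; 70.0% to 82.2% of lung and 27.4% to 58.0% of skin values came out whole within 0.01, so no count test was run.

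Ensembl identifiers matched symbols for 11829 of 11867 lung and 12641 of 12661 skin genes; positions are from GENCODE M21 on GRCm38 and promoters from RefSeq on GRCm38. Tests used limma 3.58.1 in R 4.3.3 with a variance trend, on log2(signal + pseudocount), where the pseudocount was 1 ppm of the mean library total (1.04 in lung, 1.001 in skin), so fold changes of low genes are understated. P-values were adjusted by Benjamini-Hochberg over all genes tested, with a threshold of 0.05. Depleted and control libraries were compared within each cell type, and macrophages with fibroblasts in a fit of the 4 lung groups, averaged over genotypes. The filter on low values asked for at least 1 ppm of the library total in as many libraries as the smaller group has; it removed no lung gene, so all 8 members passed, and in skin it removed Scgb1a1. The fits were tested on simulated data. Exact (Clopper-Pearson) intervals and limits from counts of 0 cover counting error only.

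The members and lists were chosen with earlier results of these data known. All 8 members are named, with up to 4 genes per list by the lowest p in the lung macrophage comparison, any gene called, the 10 genes most like the members, and gate genes. Same-numbered libraries did not deviate together over all genes (r of -0.10 to 0.08), so numbers were not used as a block. The members' mean levels did between macrophages and fibroblasts (r of 0.81 with groups centred), but that agreement is part of how they were chosen. Another pseudocount, filters, scalings, fits without a variance trend or with array weights, a block, a 4-group fit, and leaving out libraries were tried.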

Additional observations from a re-analysis of the deposited data

Results flagged for a closer look

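Of 18 groups of 4 or 6 libraries examined for a library apart from the others, 2 had one, where chance gives about 1 in 20 groups. The groups of 6 were the lung libraries of a cell type, depleted and control together. Sftpb in lung macrophages was lowest in control library 3, at 2.004 on the log2(signal + pseudocount) scale, where the gene had 0 reads; the gap to the next of the 6 libraries was 0.743 of the whole range. Cyp2f2 in skin depleted macrophages was highest in library 3, at 3.464 on the same scale; its gap to the next of 4 libraries was 0.875 of the range, and Pdgfra, the fibroblast gate gene, was at 8.42 in that library and 0.406 to 1.26 in the other 3.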

How the results depend on the processing

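No value that had passed its threshold changed sign under a setting tried. For depleted against control, counts of members that passed describe what chose the members and are no support for them. In macrophages 4 of 8 members passed. The count was 0 with a pseudocount 5 times as large, a mean of at least 5 estimated reads, quantile normalisation or no variance trend. It was also 0 with a 4-group fit or without both libraries numbered 3, and 2 with array weights. It rose to 5 with libraries rescaled to their total, and to 6 with no further pseudocount or at a limma adjusted p below 0.10. Leaving out 1 library gave 0 to 5, and a median log2 fold change of 0.92 to 2.27 (0.60 without both libraries numbered 3). In fibroblasts, where 1 passed, 0 did with the 5-read filter, quantile normalisation, no variance trend, the 4-group fit or without both libraries numbered 3, and 2 with libraries rescaled to their total; leaving out 1 library gave 0 to 2 and a median of 0.54 to 1.61 (0.15 without both numbered 3). With the replicate number as a block, which the pairing check over all genes does not warrant, 6 members passed in macrophages, 2 in fibroblasts and 7 between the cell types. Macrophages against fibroblasts gave 3 members in control mice alone, 6 with no variance trend and 5 to 7 when 1 library was left out. Of the epithelial list genes, 2 passed in macrophages; 1 did with the larger pseudocount, the 5-read filter, quantile normalisation, array weights or the 4-group fit, 0 with no variance trend or without both libraries numbered 3, and 1 to 2 with 1 library left out. In skin macrophages, where 0 members passed, Cyp2f2 did with array weights or at an adjusted p of 0.10 (1 member each), and 0 to 1 did with 1 library left out, the 1 being without control macrophages 3. The same-number r was 0.81 to 0.97 with 1 pair left out and 0.69 without the 2 furthest pairs. The share ratio was 1.56 to 2.78 in macrophages and 1.61 to 3.32 in fibroblasts with 1 library left out, and 1.17 in macrophages and 1.23 in fibroblasts without both numbered 3. Depth limits Sftpd and Sftpb in lung fibroblasts, where they had 0 to 7 reads a library.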
